A study of Homo sapiens with 8 samples.

Results

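The 10 genes described here belong to the BCL2 family, which sets whether a cell enters the mitochondrial route of apoptosis. They were chosen by name, as BMF and 9 relatives, with earlier results of these data known. All 10 were matched by symbol to the Ensembl identifiers of the deposited count files, among 58688 genes. Their messenger RNA was measured by RNA-seq in LM2 cells, a lung-metastatic line derived from the triple negative breast cancer line MDA-MB-231. In the first set of 4 samples, cells received DMSO, the solvent control, or Ponatinib (1 µmol/L, 6 h), with 2 samples each. Ponatinib is a tyrosine kinase inhibitor that acts on ABL and on several receptor kinases. In the second set of 4 samples, LM2 cells stably carried a lentiviral scrambled shRNA, an ABL1 shRNA, an ABL2 shRNA or both the ABL1 and ABL2 shRNAs, with 1 sample each. All shRNA cells, the scrambled control included, were infected for 48 h and then selected with puromycin. The labels do not say whether the repeats came from separate cultures, so p-values measure the spread between these samples, which may be technical. The study's methods list 1 hairpin for each ABL gene, so an effect of a hairpin beside its target cannot be told apart from the knockdown.

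Family members fall into 3 roles. The BH3-only proteins BMF, BIM (gene BCL2L11), PUMA (BBC3), NOXA (PMAIP1) and BIK sense stress and promote death by binding their relatives. The effectors BAX and BAK (BAK1) open the outer mitochondrial membrane and let cytochrome c out, after which caspases cut up the cell. The anti-apoptotic proteins MCL1, BCL-XL (BCL2L1) and BCL2 hold BH3-only proteins and effectors in check. In cells attached to a matrix, BMF is held at the cytoskeleton by a dynein light chain, and BMF and BIM are known for their part in the death of epithelial cells that lose attachment. Survival signalling through kinases is known to keep BIM low and MCL1 high.

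BMF (ENSG00000104081) lies on the minus strand of chromosome 15 at chr15:40087890-40108892 (GRCh38). BCL2L11 (ENSG00000153094) lies on the plus strand at chr2:111119378-111168444, and BBC3 (ENSG00000105327) on the minus strand at chr19:47220822-47232766. These 3 genes carried the rise described next, so the 250 bases before their RefSeq transcription starts (GRCh38.p14) are shown, read 5′ to 3′ along the gene's strand. Capitals mark matches on either strand to any of 6 motifs: a FOXO site (GTAAACA), an AP-1 site (TGANTCA), a CRE (TGACGTCA), an E-box (CACGTG), a GC box (GGGCGG) and a STAT site (TTCNNNGAA). No motif of the 6 matches the same bases as another in these stretches.
BMF, chr15:40108880-40109129, the first of 2 listed starts: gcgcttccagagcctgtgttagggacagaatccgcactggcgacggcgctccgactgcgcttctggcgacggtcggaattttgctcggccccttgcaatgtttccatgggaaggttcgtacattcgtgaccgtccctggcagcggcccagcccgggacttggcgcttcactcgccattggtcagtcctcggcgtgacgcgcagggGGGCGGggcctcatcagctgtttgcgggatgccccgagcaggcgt
BCL2L11, chr2:111120664-111120913: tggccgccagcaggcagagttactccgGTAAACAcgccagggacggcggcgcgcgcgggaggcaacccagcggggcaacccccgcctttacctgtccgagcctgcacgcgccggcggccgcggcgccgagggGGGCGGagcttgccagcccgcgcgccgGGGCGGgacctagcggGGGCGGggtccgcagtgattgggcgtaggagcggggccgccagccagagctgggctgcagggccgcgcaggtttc
BBC3, chr19:47232668-47232917: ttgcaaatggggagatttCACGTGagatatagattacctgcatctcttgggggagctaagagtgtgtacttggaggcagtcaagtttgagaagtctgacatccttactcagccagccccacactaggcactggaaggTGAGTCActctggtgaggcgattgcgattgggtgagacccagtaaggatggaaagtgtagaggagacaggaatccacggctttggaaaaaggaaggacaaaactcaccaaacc
The BCL2L11 stretch holds a FOXO match beginning 223 bases before the start and 3 GC boxes, and BBC3 holds an AP-1 match at 113 bases and an E-box at 232 bases. BMF holds a GC box at 45 bases before its first start and none of the 6 motifs before its second. Among 35116 RefSeq promoters of the same length, 2.98% hold the FOXO motif, 6.57% the AP-1 motif, 1.65% the CRE, 6.34% the E-box, 42.6% the GC box and 6.57% the STAT motif. Of the other members, BAX holds 4 E-boxes and a GC box, PMAIP1 holds 4 GC boxes and BAK1 holds 2, and BCL2 and both starts of BCL2L1 hold no match. A match describes the letters and is not a measured binding site, and the motifs and the 3 promoters shown were chosen after expression values were seen.

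Total counts on genes ranged from 7568934 in the second Ponatinib sample to 13010896 in the ABL1 shRNA sample, so a count of 3 corresponds to 0.231 to 0.396 CPM, a gene's counts scaled to a common library total. Levels below are CPM after TMM scaling within each set. The mitochondrial share of counts was 2.98% and 3.21% in the DMSO samples against 3.74% and 3.72% in the Ponatinib samples, and its part in the results was not tested. Of the markers checked, all 4 of the LM2 line (VIM, CD44, KRT8, KRT18) were detected in every sample, PGR had 0 counts throughout and ESR1 had 3 to 11. Of the other markers listed as low or absent in the line, ERBB2 had 515 to 826 counts, EPCAM 61 to 125 and CDH1 0 to 23. The endothelial marker PECAM1 had 18 to 42 counts in the DMSO and Ponatinib set and 233 to 499 in the shRNA set. The sets were not compared with each other, because 68 genes reached 100 counts or more throughout one set and had 0 throughout the other.

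With Ponatinib, 3 of the 5 BH3-only genes rose (BMF, BCL2L11 and BBC3), PMAIP1 did not pass the test and BIK had too few counts for it. All 3 anti-apoptotic genes (MCL1, BCL2L1 and BCL2) and both effectors (BAX and BAK1) fell, the effectors by smaller amounts. Of the 9 members tested, 3 rose and 5 fell at an adjusted P under 0.05 (edgeR quasi-likelihood test, Benjamini-Hochberg over 16031 genes), against 15% of all genes tested that rose and 15.7% that fell. By the study's thresholds for differentially expressed genes (DEGs), fold change over 2 and unadjusted P under 0.05, 3 members were higher and 2 lower, against 3.19% and 2.29% of all genes. The members were chosen with earlier results of these data known, so these shares are a description and not a test of the family. The median log2 fold change was -0.33 over the 9 members and -0.0047 over all genes tested. BMF entered the test only through its counts in the Ponatinib samples, so it had to differ to be tested at all. With a filter of 10 counts in every sample, which leaves BMF out, 7 members passed and 4 were DEGs. Groups of 2 samples can lie apart by chance. The relatives BID and BAD did not overlap between the groups either, yet did not pass the test. The share of all genes without overlap was not counted, so lack of overlap below is a description. In bulk RNA, fewer cells expressing a gene and less RNA per cell cannot be told apart.

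BMF, which antagonizes BCL2 and its kin, stood at 0.531 and 0.709 CPM in the DMSO samples and at 3.80 and 3.77 CPM in the Ponatinib samples. These levels rest on 6 and 7 counts against 40 and 29. Both Ponatinib samples lay above both DMSO samples. The log2 fold change was 2.60 ± 0.348 (SE, n = 2 against 2; edgeR adjusted P = 4.5e-05), and 26 of the 16031 genes rose more. The 95% interval of that change ran from 1.86 to 3.34, the widest among the members tested. BMF passed the count filter only through the Ponatinib samples, so its P and its rank are a description and not support for a rise. The antisense gene BMF-AS1, which shares 8.46% of BMF's exon bases, had 0 counts in every sample.

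BCL2L11 encodes BIM, a BH3-only protein that can engage every anti-apoptotic member. Its level was 15.8 and 15.1 CPM with DMSO and 35.2 and 32.9 CPM with Ponatinib, with no overlap. The log2 fold change was 1.14 ± 0.108 (SE, n = 2 against 2; edgeR adjusted P = 1.3e-06). A long non-coding RNA on the other strand, MIR4435-2HG, shares 10.8% of BCL2L11's exon bases and moved the other way, by -0.50 on the log2 scale (edgeR adjusted P = 1.5e-04).

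BBC3 encodes PUMA, known as a target of p53 and of FOXO factors. It was measured at 6.82 and 8.00 CPM with DMSO and at 23.4 and 24.1 CPM with Ponatinib. Again both treated samples lay above both controls. Its log2 fold change was 1.68 ± 0.139 (SE, n = 2 against 2; edgeR adjusted P = 3.3e-07), and 119 of the genes tested rose more, against 382 for BCL2L11.

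The other BH3-only members did not pass. PMAIP1 encodes NOXA, which binds MCL1. Its level was 47.2 and 45.4 CPM with DMSO and 46.6 and 45.3 CPM with Ponatinib, so the groups overlapped. The log2 difference was -0.01, with a 95% interval from -0.18 to 0.16 (edgeR adjusted P = 0.944), a range that leaves room for changes of up to that size. BIK had 4 and 6 counts with DMSO and 5 and 7 with Ponatinib, too few to be tested.

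**Figure D1:**
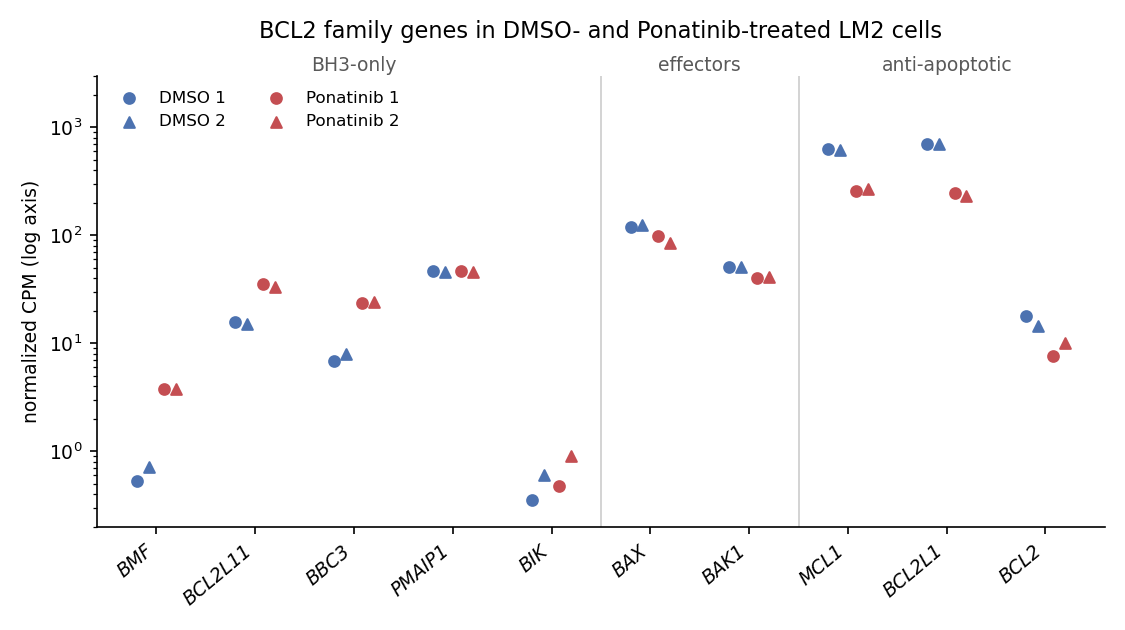
Normalized CPM (log axis) of the 10 genes in each DMSO sample (blue) and each Ponatinib sample (red), ordered by role, with circles for repeat 1 and triangles for repeat 2. BMF, BCL2L11 and BBC3 are higher in both Ponatinib samples, PMAIP1 and BIK overlap, and the 5 effector and anti-apoptotic genes are lower in both. The share of all genes without overlap was not counted.

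The effectors fell modestly. BAX, at chr19:48954815-48961798, went from 119.7 and 125.7 CPM to 98.9 and 85.5 CPM, a log2 change of -0.40 ± 0.075 (SE, n = 2 against 2; edgeR adjusted P = 8.4e-04). BAK1, at chr6:33572547-33580293, went from 51.3 and 50.5 CPM to 40.1 and 41.0 CPM. Neither gene overlapped between the groups. The log2 fold change of BAK1 was -0.33 ± 0.081 (SE, n = 2 against 2; edgeR adjusted P = 0.0059). Its call did not hold when the first DMSO sample was left out (-0.32, adjusted P = 0.0781) or with DESeq2 (-0.33, adjusted P = 0.0847). With a sample left out, an arm holds 1 sample, which is assumed to vary like the pair in the other arm.

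Among the anti-apoptotic genes, BCL2L1 fell the most. BCL2L1, at chr20:31664452-31723989 on the minus strand, stood at 694.9 and 701.7 CPM with DMSO and at 244.7 and 229.6 CPM with Ponatinib. The log2 fold change was -1.56 ± 0.061 (SE, n = 2 against 2; edgeR adjusted P = 8.7e-11), a level 2.94-fold lower. Gene-level counts do not separate its long form, which protects cells, from its short form, which promotes death. In the annotation used here the antisense gene ABALON shares 41.3% of BCL2L1's exon bases, and it was not among the genes counted.

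MCL1, a short-lived protein whose gene lies at chr1:150560895-150579738, was at 630.0 and 617.5 CPM with DMSO and at 255.4 and 270.3 CPM with Ponatinib. The treated samples lay well below the controls, with a log2 change of -1.25 ± 0.060 (SE, n = 2 against 2; edgeR adjusted P = 1.1e-09), or 2.37-fold lower. Both genes were abundant before treatment. Of the 2467 genes at 100 CPM or more in DMSO, 21 (0.851%) fell by more than BCL2L1 and 37 (1.5%) by more than MCL1.

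BCL2, the founder of the family, at chr18:63123346-63320128, was far less abundant, at 18.1 and 14.6 CPM with DMSO and 7.61 and 10.0 CPM with Ponatinib. The groups did not overlap, and the log2 fold change was -0.92 ± 0.168 (SE, n = 2 against 2; edgeR adjusted P = 7.1e-04). This is 1.89-fold lower, just short of the 2-fold bound of a DEG. It crossed that bound when the second DMSO sample or the second Ponatinib sample was left out, with a range of -1.11 to -0.70 over the 4 samples left out in turn.

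**Figure D2:**
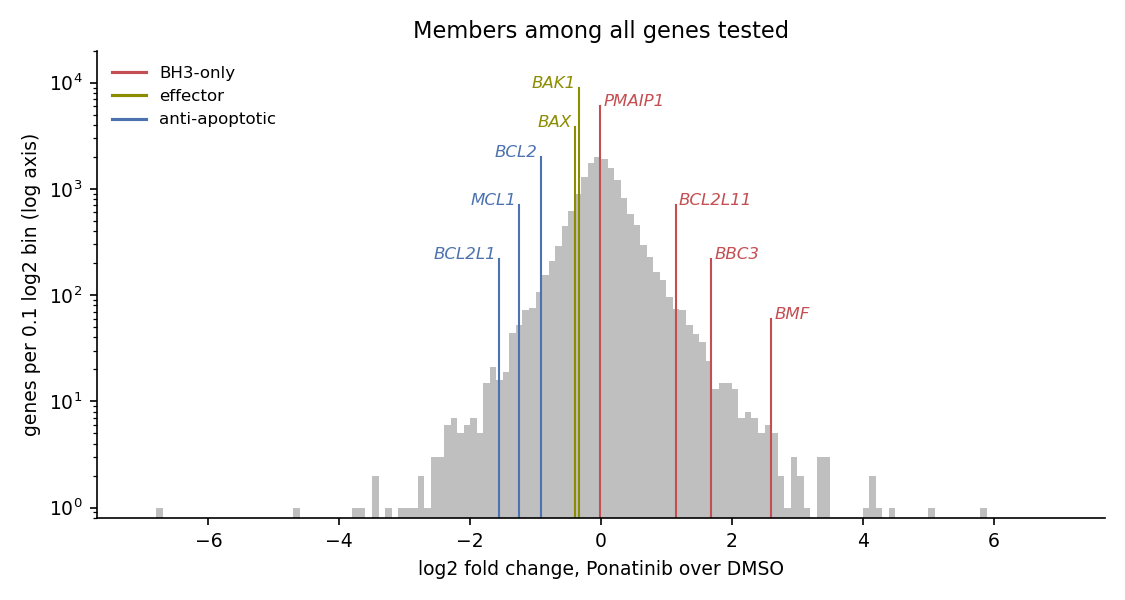
Histogram of log2 fold changes, Ponatinib over DMSO, of the 16031 genes tested (grey, genes per bin of 0.1 on a log axis), with a line at the value of each of the 9 members tested, colored by role. The heights of the lines only separate the labels. The 3 BH3-only genes at the right lie between 1.14 and 2.60, PMAIP1 lies at -0.01, and the anti-apoptotic genes lie between -1.56 and -0.92.

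To set the roles side by side, CPM was divided by the kilobases of merged exons of each gene, for a rough comparison between genes. The merge takes every annotated form, while the forms expressed and the annotation used for counting are not known. On this scale the DMSO samples averaged 166.4 CPM per kilobase for BCL2L1, 100.2 for MCL1, 47.4 for BAX, 23.0 for BAK1 and 21.2 for PMAIP1. Far lower were BBC3 at 2.33, BCL2L11 at 2.29, BCL2 at 1.29 and BIK at 0.506. The ranges of BBC3 (2.14 to 2.51) and BCL2L11 (2.24 to 2.35) overlapped, so their order is not resolved. BMF was at 0.0975 and 0.130 CPM per kilobase in the DMSO samples and at 0.698 and 0.693 in the Ponatinib samples. It thus made up 0.367% and 0.495% of the summed BH3-only level with DMSO, and 1.99% in each Ponatinib sample.

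The summed level of the 3 anti-apoptotic genes was 268.3 and 267.6 CPM per kilobase with DMSO and 99.96 and 98.9 with Ponatinib. The summed BH3-only level was 26.5 and 26.3 with DMSO and 35.1 and 34.8 with Ponatinib. PMAIP1, which did not pass the test, made up 81.3% and 79% of that sum in the DMSO samples and 60.8% and 59.5% in the Ponatinib samples. Without it the sums were 4.96 and 5.52 with DMSO and 13.8 and 14.1 with Ponatinib. Anti-apoptotic RNA was thus 10.1 and 10.2 times the BH3-only RNA in the DMSO samples and 2.85 and 2.84 times in the Ponatinib samples. Effector sums were 69.5 and 71.4 with DMSO against 56.4 and 51.6 with Ponatinib. BCL2L1 made up 61.7% and 62.5% of the anti-apoptotic sum in the controls and 58.3% and 55.3% in the treated samples, MCL1 nearly all of the rest, and BCL2 at most 0.8%. These sums follow from the members' own values and were not tested.

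**Figure D3:**
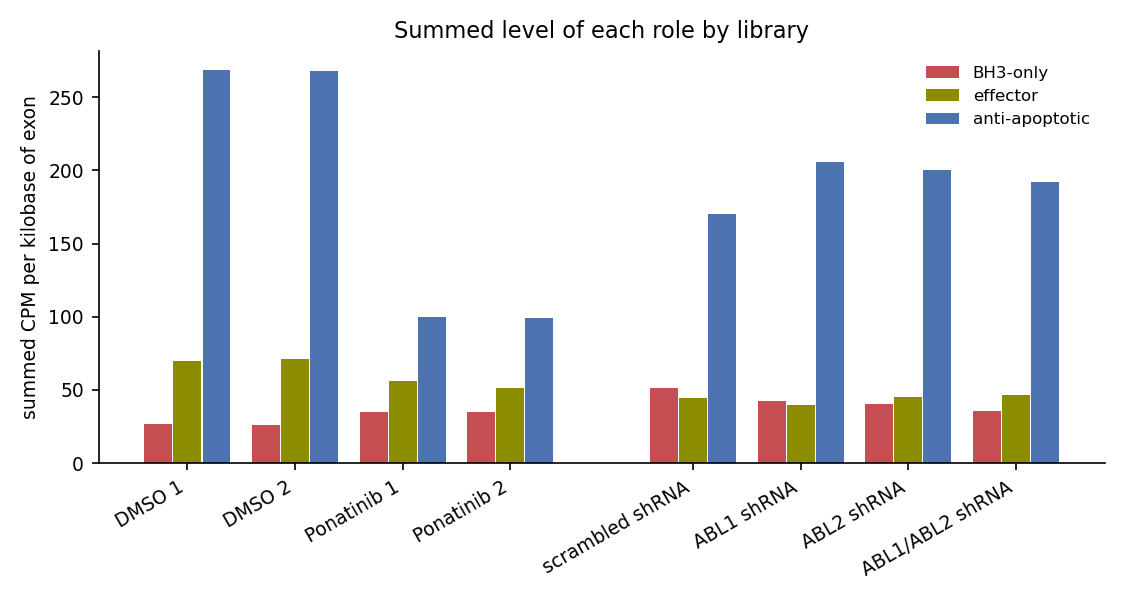
Summed CPM per kilobase of exon of the BH3-only (5 genes, red), effector (2 genes, olive) and anti-apoptotic (3 genes, blue) members in each library, with the DMSO and Ponatinib set at the left and the shRNA set at the right. The anti-apoptotic bars drop from about 268 to 99.96 and 98.9 with Ponatinib, while in the shRNA set they stand between 169.9 and 205.9.

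Among 61 tested genes of 6 lists around the family, 26 (42.6%) passed the adjusted P and 5 (8.2%) were DEGs, against 30.7% and 5.48% of all genes tested. Both counts include TNFSF10, which entered the test only through its counts in the Ponatinib samples. The counts for each list stand beside the 15% of all genes that rose and the 15.7% that fell. Of 8 other BCL2 family genes tested, BOK, a BAX-like gene, fell by 0.37 on the log2 scale (edgeR adjusted P = 0.0118), and the other 7, among them BID, BAD and BCL2L2, did not pass. Of 17 apoptosome and caspase genes, 2 rose (CASP6 and CASP10) and 5 fell, among them CYCS, which encodes cytochrome c (-0.32, edgeR adjusted P = 0.0013), and none was a DEG. Of 6 inhibitors of apoptosis, NAIP rose, and BIRC2 and BIRC3, which restrain cell death through ubiquitination, fell by 0.62 and 0.74 on the log2 scale. The median log2 fold changes of these 3 lists were -0.15, -0.07 and -0.001.

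Of 11 death receptor genes tested, TNFSF10, which encodes the ligand TRAIL, was higher with Ponatinib (log2 fold change 1.20, edgeR adjusted P = 0.0244). It rested on means of 0.943 and 2.13 CPM, from 11 and 9 counts with DMSO and 27 and 13 with Ponatinib. Like BMF, TNFSF10 passed the count filter only through the Ponatinib samples, so its P is a description and not support for a rise. TNFRSF10A, which encodes a TRAIL receptor that signals death, fell by 1.19 on the log2 scale (edgeR adjusted P = 1.6e-05), as did the decoy receptor TNFRSF10D and the adaptor FADD by 0.59 and 0.82. Of 7 genes for anchors and turnover of the family, 2 rose and 1 fell. The gene that fell was DYNLL1, a dynein light chain (-0.29, edgeR adjusted P = 0.0051), while DYNLL2, the light chain that holds BMF, had a value of -0.05 (edgeR adjusted P = 0.609). The median log2 fold changes of these lists were 0.02 and 0.12.

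Of 12 transcription factors known to control family members, 4 rose and 4 fell. FOXO1, an activator of BCL2L11 and BBC3 in other settings, rose by 1.04 on the log2 scale (edgeR adjusted P = 1.3e-04), and DDIT3, the stress factor CHOP, rose by 1.66 (edgeR adjusted P = 3.1e-08). JUN, a subunit of AP-1, fell by 2.18 on the log2 scale (edgeR adjusted P = 1.4e-11) from a mean of 288.1 ± 10.6 CPM to 63.3 ± 2.29 CPM (SD, n = 2). FOXO3 had a value of -0.07 (edgeR adjusted P = 0.573), and the median of the list was -0.04. ABL1 and ABL2, the kinases targeted in the second set, had log2 fold changes of 0.19 (edgeR adjusted P = 0.0287) and -1.02 (edgeR adjusted P = 8.6e-08) with the drug.

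The knockdown samples addressed whether loss of the drug's known target ABL moved the same genes. Each condition has 1 sample, so there is no replicate spread, no test and no p-value. Each ratio over the scrambled sample carries an exact 95% interval from a conditional binomial, which covers counting error only, and the 3 comparisons share that single control. ABL1 was at 189.2 CPM in the scrambled sample, 72.9 under ABL1 shRNA, 202.5 under ABL2 shRNA and 109.5 in the double knockdown. ABL2 was at 235.4, 212.8, 93.5 and 147.8 CPM in the same order. Each target was lowest under its own shRNA, and less reduced in the double knockdown. Inside the files of the scrambled and ABL1 shRNA samples the header cells are exchanged, each naming the other condition. The ABL1 levels go with the sample labels, which were used.

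BMF, which rose with Ponatinib, was lower in all 3 knockdown samples than in the scrambled sample. It was at 54.2 CPM with scrambled shRNA, 7.72 with ABL1 shRNA, 11.5 with ABL2 shRNA and 7.08 under the double knockdown, from 619, 100, 145 and 86 counts. The scrambled sample alone was high. Its level was 7.03-fold lower after ABL1 knockdown (95% interval 5.68 to 8.77), 4.71-fold lower after ABL2 knockdown (3.93 to 5.68) and 7.66-fold lower in the double knockdown (6.10 to 9.71). Of the 9 members averaging at least 1 CPM over the shRNA set, BMF and BCL2 were more than 2-fold lower with ABL1 shRNA, against 3.06% of 14722 genes at that level. BMF alone was past 2-fold in the ABL2 shRNA and double knockdown samples, against 2.15% and 2.19% of genes. None was more than 2-fold higher, against 3.28%, 3.28% and 3.14% of genes. Median log2 ratios of the 9 members were -0.11, -0.005 and -0.19, beside 0.007, -0.007 and 0.003 over all genes at that level.

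The scrambled sample stood apart from the knockdown samples as a whole. In it, 240 of the 14722 genes were past 2-fold from all 3 others in one direction, against 59 for the ABL1 shRNA, 85 for the ABL2 shRNA and 20 for the double knockdown sample. The scrambled sample is also the only sample of the set without an ABL hairpin. An unusual control and an effect shared by the knockdowns thus cannot be told apart. The fibroblast marker COL1A1 moved with BMF, with 4623, 1285, 2851 and 1683 counts in the order given above. That list of 4 markers summed to 407.0 CPM in the scrambled sample and to 100.1, 227.8 and 139.4 CPM in the knockdown samples, nearly all of it COL1A1. COL1A2, of the same list, had 18, 7, 17 and 7 counts, and DCN and PDGFRA had 0 to 4 in every sample of the set. The blood and endothelial list of 5 markers went the other way, from 21.7 CPM in the scrambled sample to 32.3, 40.2 and 33.4 CPM, nearly all of it PECAM1 with 233, 398, 499 and 393 counts. The part of these markers in the BMF values was not tested. Since no second scrambled sample exists, the BMF ratios cannot be given without it. Among the 3 knockdown samples BMF ranged from 7.08 to 11.5 CPM.

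**Figure D4:**
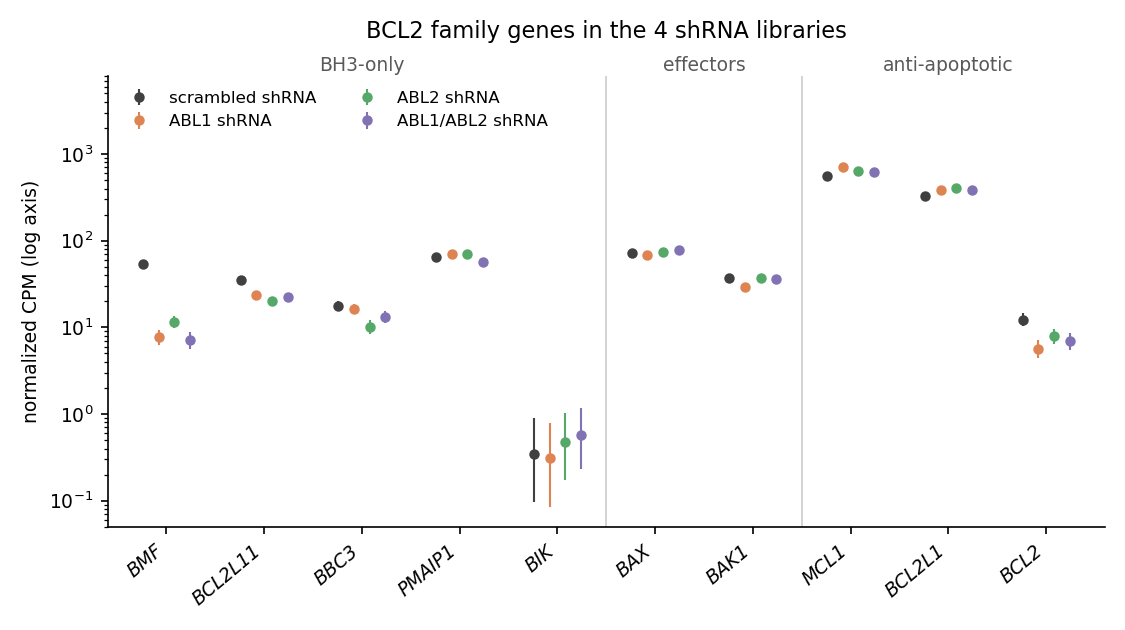
Normalized CPM (log axis) of the 10 genes in the 4 shRNA libraries, with exact Poisson 95% intervals that cover counting error only. BMF stands at 54.2 CPM in the scrambled library and between 7.08 and 11.5 CPM in the others, whereas BAX, PMAIP1, MCL1 and BCL2L1 differ little between libraries on this axis.

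The other BH3-only genes differed less. BCL2L11 was at 35.0 CPM with scrambled shRNA and at 23.8, 19.9 and 22.4 CPM with ABL1, ABL2 and both shRNAs. BCL2L11 was thus lower in each knockdown sample, by 1.47-fold (1.26 to 1.71), 1.75-fold (1.49 to 2.06) and 1.56-fold (1.33 to 1.83). Here and below, the intervals leave out the spread between samples, so an interval that excludes 1 does not establish a change. BBC3 was at 17.6, 16.4, 10.2 and 13.3 CPM in the same order. It was 1.73-fold lower with ABL2 shRNA (1.38 to 2.18), while with ABL1 shRNA the interval of the ratio (0.762 to 1.13) included 1. PMAIP1 was at 65.5, 69.9, 69.6 and 57.5 CPM, and BIK had 4, 4, 6 and 7 counts.

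Neither effector was past 2-fold in a knockdown. BAX was at 72.3, 68.8, 73.3 and 78.7 CPM, and each of its 3 ratios had an interval that included 1. BAK1 was at 36.8, 29.2, 36.7 and 36.3 CPM. Its ratio was 0.793 with ABL1 shRNA (0.688 to 0.913) and 0.997 and 0.987 in the others, with intervals that included 1.

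MCL1 and BCL2L1, which fell with Ponatinib, were slightly higher in every knockdown sample than in the scrambled sample. MCL1 was at 563.5 CPM with scrambled shRNA and at 702.1, 644.1 and 618.9 CPM with ABL1, ABL2 and both shRNAs. These are ratios of 1.25 (1.21 to 1.29), 1.14 (1.11 to 1.18) and 1.10 (1.06 to 1.14). BCL2L1 was at 329.1, 388.7, 404.6 and 385.7 CPM, with ratios of 1.18, 1.23 and 1.17. BCL2 was lower in each, at 12.3, 5.64, 7.94 and 6.92 CPM, and the 2.18-fold lower level with ABL1 shRNA (1.63 to 2.93) rests on 140 and 73 counts. It no longer passed 2-fold with a pseudocount of 1 CPM.

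**Figure D5:**
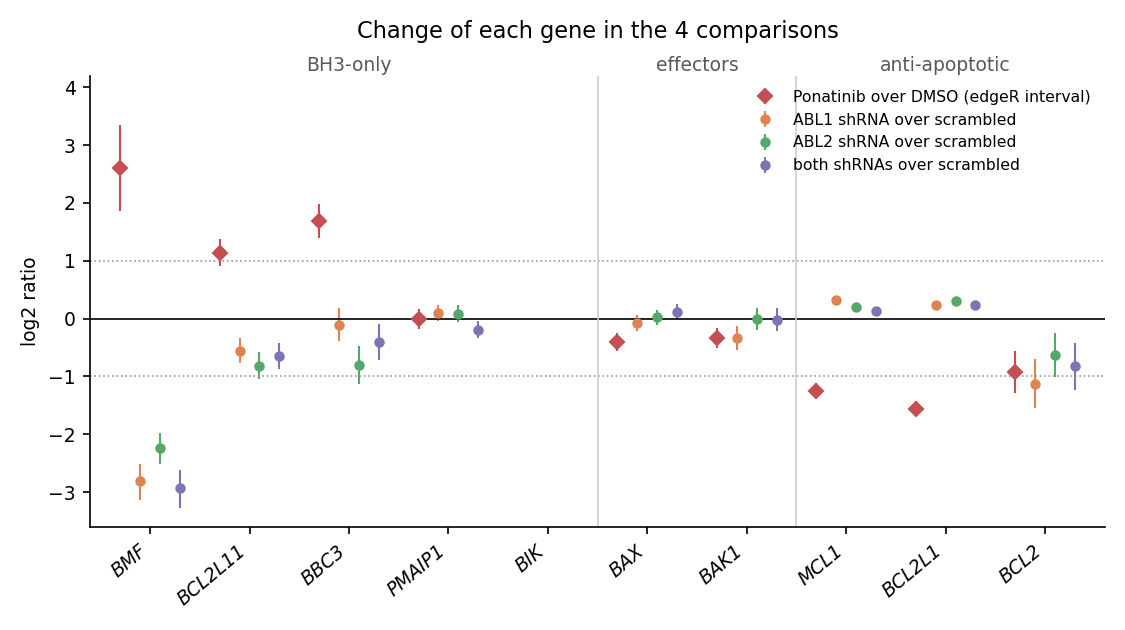
Log2 ratio of each gene after Ponatinib over DMSO (red diamonds, edgeR 95% interval, n = 2 against 2) and in each knockdown over scrambled shRNA (circles, exact 95% interval for counting error only, 1 sample each), with dotted lines at 2-fold and no ratio drawn for BIK. BMF lies at 2.60 after Ponatinib and between -2.94 and -2.24 in the knockdowns, and MCL1 and BCL2L1 lie below -1 after Ponatinib and above 0 in the knockdowns.

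On the CPM per kilobase scale, the anti-apoptotic sum was 169.9 with scrambled shRNA and 205.9, 200.5 and 191.9 in the knockdowns, and the BH3-only sum was 51.0 against 42.4, 40.6 and 35.7. BMF made up 19.5% of the BH3-only sum in the scrambled sample and 3.35%, 5.20% and 3.64% in the knockdowns. PMAIP1 made up 58.8% in the scrambled sample and 75.4%, 78.4% and 73.6% in the knockdowns. Without BMF the BH3-only sums were 41.1, 40.9, 38.5 and 34.4. Anti-apoptotic RNA was 3.33 times the BH3-only RNA with scrambled shRNA and 4.86, 4.94 and 5.37 times in the knockdowns.

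With ABL1, ABL2 and both shRNAs, 3.28%, 3.28% and 3.14% of the 14722 genes were more than 2-fold higher, and 3.06%, 2.15% and 2.19% lower. No gene passed 2-fold among 8 other BCL2 family, 17 apoptosome and caspase, 6 inhibitor of apoptosis and 7 anchor and turnover genes. These lists, again of genes averaging at least 1 CPM, are too short to be set apart from those shares. Of 11 death receptor genes, TNFRSF10B, which encodes the second death-signalling TRAIL receptor, was 2.02-fold higher with ABL1 shRNA (1.92 to 2.12). FAS was 2.88-fold higher with ABL2 shRNA (1.78 to 4.82) and 2.04-fold higher with both (1.22 to 3.51), from 23 counts in the control. Of 13 transcription factors, TP63, a p53 relative, was lower in all 3, by 2.07-fold, 2.94-fold and 2.09-fold, from 104 counts in the control against 57, 39 and 53. The median log2 ratios of the 6 lists ranged from -0.18 to 0.47 over the 3 knockdowns, and the highest was that of the death receptor genes with ABL1 shRNA.

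The genes whose pattern was most like that of BMF were found by Pearson's r of log2(CPM + 0.25) over the 8 samples, centred within each set, among 9567 genes averaging at least 10 CPM in each set. They were ENSG00000278730 (r = 0.996), STAT2 (0.993), RCAN1 (0.992), CTDSP2 (0.991) and KIF13A (0.990). STAT2, a transducer of interferon signals, stood at 60.4 and 68.9 CPM with DMSO, 107.5 and 112.6 with Ponatinib, 205.2 with scrambled shRNA and 117.3, 124.7 and 107.0 in the knockdowns. Like BMF, all 5 were higher in both Ponatinib samples than in both DMSO samples and highest in the scrambled sample of the shRNA set. The r values and the shared pattern are a description. The genes were picked for the highest r of many, so their likeness to BMF is part of the choice. The 8 points also share the libraries and lean on the scrambled sample.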

How the data were processed

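RNA of LM2 cells was sequenced in 8 samples. Per the labels and the study's methods, libraries were made with a NEBNext Ultra kit, and the authors mapped reads to hg38 with Bowtie/TopHat and counted them per gene with HTSeq (0.6.0). The deposited values are raw counts, 1 file per sample, without normalization. The counting mode, strand setting and annotation release are not given in the sources used here. Of 58688 gene identifiers, 93.4% matched a symbol. Summary rows (no feature 9.48% to 9.90%, ambiguous 6.12% to 6.32% of gene counts and summary rows together) occur only in the shRNA files and were left out.

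Ponatinib was tested against DMSO by the quasi-likelihood test of edgeR 4.0.16 (R 4.3.3) after TMM scaling and filterByExpr, with Benjamini-Hochberg adjustment over all genes tested. Knockdowns, with 1 sample each, were given as ratios of TMM-normalized CPM with exact 95% intervals for counting error and called past 2-fold. Positions and exon lengths came from GENCODE on GRCh38 and promoters from RefSeq, where 9 of the 10 members had an entry and MCL1 did not. In a simulation of the Ponatinib comparison over 15978 genes, 182 of 200 genes changed by 1.5 on the log2 scale were recovered, with 7 unchanged genes called. All genes were drawn with the same fixed dispersion in both groups, and only genes above 1 CPM were changed. The real Ponatinib pair lay further apart than the DMSO pair (chi-square per degree of freedom 4.07 against 1.61). The simulated figures are thus not error rates of the real comparison.

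The genes named are the 10 members, ABL1 and ABL2, genes of 6 lists that were DEGs with an adjusted P under 0.05 or past 2-fold in a knockdown with at least 30 counts, and the 5 genes most like BMF. Other list genes given were chosen after their values were seen. The members and lists were chosen with earlier results of these data known. Alternatives were plain CPM, DESeq2 1.42.0 (size factors and Wald test), other count filters, a pseudocount of 1 CPM, the replicate block, a fit of all 8 samples and omission of each sample of the Ponatinib comparison in turn.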

Additional observations from a re-analysis of the deposited data

How the results depend on the processing

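After Ponatinib, 7 or 8 members passed and 4 to 6 were DEGs under every alternative run. Leaving out each sample in turn, where the spread comes from the pair in the other arm alone, gave 7 to 8 members passing and 5 to 6 DEGs, and moved PMAIP1, which never passed, between -0.04 and 0.02 on the log2 scale (-0.03593 to 0.01879), so its sign is not resolved. BAK1 lost its call with DESeq2 and without the first DMSO sample, as given above, and the cause was not tested. With the replicate block, 8 members passed and 5 were DEGs, and DEGs among all genes were 892 against 878. Over all genes, 4917 passed, against 2586 with DESeq2, 2800 and 3242 without the first and second DMSO samples, and 5744 and 5312 without the first and second Ponatinib samples. DEGs numbered 549 under the filter of 10 counts per sample and 1234 with no filter. The deviations of same-numbered samples correlated at 0.01435 over 10278 genes, so the numbers were not taken to pair the samples. With a pseudocount of 1 CPM, 1 member in place of 2 was past 2-fold with ABL1 shRNA, since BCL2 came to -0.9997 on the log2 scale, and the counts for ABL2 shRNA and for both shRNAs stayed at 1 under all alternatives. Knockdown values from a fit of all 8 samples take their spread from the DMSO and Ponatinib pairs and are not given as tests. With few counts, BMF in the DMSO samples and BIK in all samples are the values that depth limits most.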
